A study of Rattus norvegicus with 4 samples.

Results

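The genes described here encode the contractile and energy-supplying proteins of skeletal muscle fibres, and they were followed in the carotid body (CB) of neonatal and adult rats. They are 10 genes chosen by symbol, of the 32883 genes in the count table. They comprise 6 myosin heavy chains (Myh1, Myh2, Myh3, Myh4, Myh7 and Myh8), skeletal alpha-actin (Acta1), fast troponin T (Tnnt3), the fast regulatory light chain (Mylpf) and muscle creatine kinase (Ckm). A row was found for 8 of them. No row of the table carries the names Myh1 or Myh2, so both are not analysed here. Levels are given as CPM, counts scaled to a library total of 1000000. A level of 1 CPM in 2 or more libraries was required for a test, which 5 of the 8 met and 3 (Ckm, Myh7 and Myh8) did not.

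The CB lies where the carotid artery divides, and its glomus cells respond to low oxygen in arterial blood. Each library was made from CBs pooled from several Sprague Dawley rats, at day 5 (neonate, 6 pups per pool by the labels) or day 21 (adult, 3 rats per pool by the labels). Neither a treatment nor an engineered allele is named for either age. There were 2 libraries per age, 4 in all, with totals from 36286191 to 39476110 estimated counts. The methods of the study give larger pools and more replicates than the labels do, and the labels were followed. At these totals, 3 counts, taken as the floor of detection, correspond to 0.0760 to 0.0827 CPM, which covers counting error only. Because each library holds RNA of a whole organ, fewer cells of a type and less RNA per cell cannot be told apart.

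Skeletal muscle fibres contract when myosin heavy chains of the thick filament pull on actin of the thin filament, with troponin as the calcium switch. Several heavy chain genes lie side by side in the genome. In skeletal muscle, Myh3 (embryonic) and Myh8 (perinatal) are used first and are replaced after birth by the adult fast chains of Myh2, Myh1 and Myh4, while Myh7 serves slow fibres. Fibres also exchange other isoforms as they mature, such as Tnnt2 for Tnnt3 or Myl4 for Myl1.

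In these CBs Myh3 did not follow that order. It alone of the tested members was called, being 3.38-fold higher in adults than in neonates. Myh8 had 0 counts in all 4 libraries. Of the 5 members tested, 1 was lower in neonates, 0 were higher and 4 did not pass the test, where a call needed an adjusted p below 0.05 together with a change of 2-fold or more. Of all 13843 genes tested, 20.8% were called in either direction and 13.2% were lower in neonates, so 1 of 5 is close to the background. The embryonic chain was thus the higher at the older age, the perinatal chain was at 0, and of the adult fast chains Myh4 alone had a row. A switch of myosins was not seen in these values. They could not show one in full, since Myh1 and Myh2 had no row and Myh8 had 0 counts. The genes are called by their names below.

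Several defining genes of skeletal muscle were at 0, while others were present at low levels. Of 87 other skeletal muscle genes with a row, 9 had 0 counts in every library, 16, these 9 included, had at most 3 counts in any, and 31 were high enough to be tested. Those at 0 were Myl2 and Myl3 (slow light chains), Sln (sarcolipin), Smyd1 (a methyltransferase of sarcomere assembly) and the myogenic regulators Myf5, Myod1, Pax7, Vgll2 and Mymx. Myog had 2 counts in neonate replicate 1 and 0 in the others. Among those present, the fast light chain Myl1 was at 8.61 and 9.38 CPM in neonates and at 3.12 and 4.85 CPM in adults, and the members Acta1, Mylpf and Tnnt3 were also detected in every library. In contrast, the glomus cell gene Th, the rate-limiting enzyme of catecholamine synthesis, stood at 917 and 781 CPM in neonates and at 1517 and 1242 CPM in adults.

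The libraries of an age were not alike in every respect. Pth, which encodes parathyroid hormone, reached 1595 CPM in neonate replicate 1 but 194 CPM in the other neonatal library, with 0 counts in adults. The part of parathyroid tissue in the results below was not tested, and values without each library are given where they change a call.

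**Figure D1:**
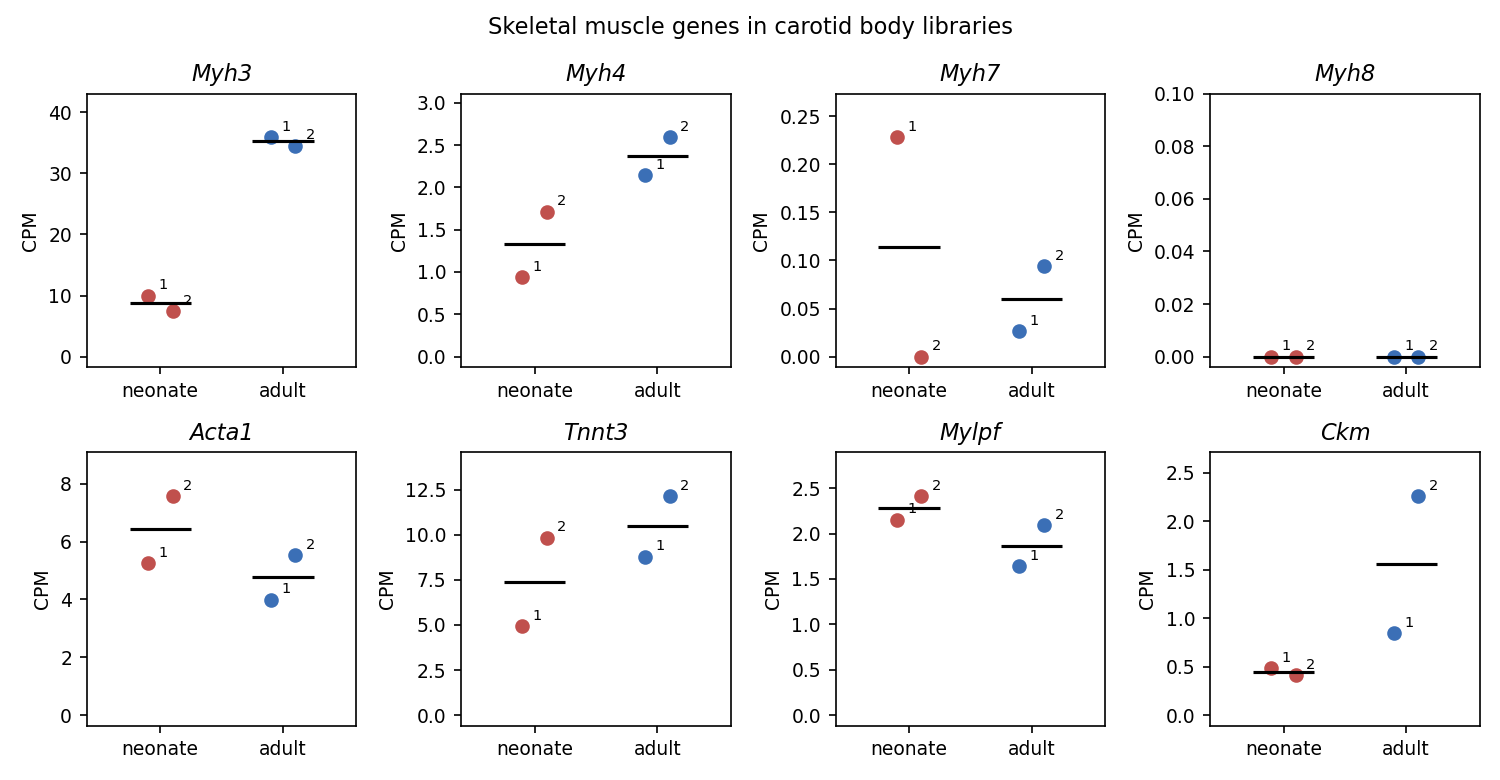
CPM of the 8 members with a row, each point being 1 library (numbered by replicate) and each bar the mean of an age, on axes scaled to each gene. Myh3 stands at 10.01 and 7.51 CPM in neonates against 35.9 and 34.6 CPM in adults, while Acta1 and Tnnt3 overlap between ages and Myh8 lies at 0.

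Myh3 (ENSRNOG00000046276), the embryonic myosin heavy chain, had 10.01 CPM in neonate replicate 1, from 395 counts, and 7.51 CPM in neonate replicate 2, from 289. In adults it had 35.9 CPM (1356 counts) and 34.6 CPM (1254 counts). The ages were far apart, with means of 8.76 ± 1.77 (SD, n = 2) and 35.2 ± 0.944 CPM (SD, n = 2). After TMM normalization the log2 fold change, neonate over adult, was -1.76 (standard error 0.15, adjusted p = 2.5e-05, edgeR). The 95% interval ran from -2.11 to -1.41, or from 2.66- to 4.31-fold higher in adults. Among the 13843 genes tested, 640 had a lower log2 fold change. The fold of the mean CPM, 4.02, is larger than the fitted one because TMM moves the adult libraries against the neonatal ones. Scaled to library size alone, the median of all genes moved from -0.0029 to -0.25 on the log2 scale and Myh3 to -2.01.

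Upstream sequences of the members are shown here for 3 genes: Myh3, which rose in adults, Myh4, an adult fast chain of the same cluster, and Acta1, the actin of the thin filament. RefSeq promoters (build GRCr8) matched 8 of the 10 members by symbol, all except Mylpf and Tnnt3. Each sequence is the 250 bases before the annotated start, from chr10:52268935-52269184 (plus strand) for Myh3, chr10:52421898-52422147 (plus strand) for Myh4 and chr19:68784195-68784444 (minus strand) for Acta1, written 5′ to 3′. Capitals mark TATAAA, the MCAT core CATTCC, the CArG box bound by serum response factor and the MEF2 site, each searched on both strands.
Myh3 promoter: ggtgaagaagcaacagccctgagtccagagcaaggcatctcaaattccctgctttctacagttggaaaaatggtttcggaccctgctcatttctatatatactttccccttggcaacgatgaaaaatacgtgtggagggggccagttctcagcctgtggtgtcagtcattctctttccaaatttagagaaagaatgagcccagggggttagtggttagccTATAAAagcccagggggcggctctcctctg
Myh4 promoter: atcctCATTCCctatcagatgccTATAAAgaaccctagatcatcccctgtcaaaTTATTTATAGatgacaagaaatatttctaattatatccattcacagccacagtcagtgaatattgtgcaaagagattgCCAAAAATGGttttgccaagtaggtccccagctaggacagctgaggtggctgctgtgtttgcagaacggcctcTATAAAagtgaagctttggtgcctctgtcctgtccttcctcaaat
Acta1 promoter: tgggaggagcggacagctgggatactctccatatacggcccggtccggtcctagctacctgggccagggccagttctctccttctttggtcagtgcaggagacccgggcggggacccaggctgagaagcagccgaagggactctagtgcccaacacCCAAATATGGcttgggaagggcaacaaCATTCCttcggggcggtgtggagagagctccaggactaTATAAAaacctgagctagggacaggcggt

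The Myh3 window held 1 of these motifs, a TATA element that begins at -30. The Myh4 window held all 4, with a CArG box at -118, an MCAT core at -245, a MEF2 site at -196 and TATAAA at -227, -193 and -45, of which the one at -193 overlaps the MEF2 site. The Acta1 window held a CArG box at -94, an MCAT core at -67 and a TATA element at -29. Over all 33469 promoter windows of this length, 12.9% held TATAAA, 12.1% the MCAT core, 1.497% a CArG box and 2.96% a MEF2 site. The E-box CANNTG, bound by myogenic regulators, is not capitalised. It was found in 5 of the 8 member windows, once in that of Myh3, and in 65.5% of all windows. Of the 8 member windows, 5 held TATAAA, 3 the MCAT core, 2 a CArG box and 2 a MEF2 site. These matches describe letters, not bound sites.

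Myh4 (ENSRNOG00000049695), the heavy chain of the fastest fibres, had 0.937 and 1.71 CPM in neonates (37 and 66 counts) and 2.14 and 2.59 CPM in adults (81 and 94 counts). Both adult libraries were above both neonatal ones. The ages did not overlap, in either direction, in 83.1% of all genes tested. The log2 fold change was -0.60 (standard error 0.38) with a 95% interval from -1.47 to 0.28, and it did not pass (adjusted p = 0.20, edgeR's quasi-likelihood test). Without neonate replicate 2, the higher neonatal library, it was -1.04 and passed (adjusted p = 0.038, edgeR's quasi-likelihood test), and without neonate replicate 1 it was -0.23 (adjusted p = 0.59). The call for Myh4 thus depended on a single neonatal library.

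Myh7 (ENSRNOG00000016983), the slow and cardiac beta chain, was at trace level. Its counts were 9 and 0 in neonates and 1 and 3.42 in adults, the last of them fractional, as was that of Myh6 in the same library. Myh8 (ENSRNOG00000050042), the perinatal chain, had 0 counts everywhere, which allows up to 0.0760 to 0.0827 CPM. A level under this floor was not detectable at this depth. Of the other sarcomeric chains, Myh6 (cardiac alpha) had 5 and 4 counts in neonates and 0 and 4.58 in adults, and Myh15 had 1 count in all.

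Since a library can hold more or less muscle RNA as a whole, the developmental chains were also expressed as a share of myosin counts in the same library. These were the counts of the myosin members with a row (Myh3, Myh4, Myh7 and Myh8). The adult fast chains Myh1 and Myh2 had no row, so the share leaves them out and their effect on it is not known. Counts were not divided by transcript length, so the share is one of reads and is compared only between ages. Myh3 and Myh8 together took 89.6% of 441 counts in neonate replicate 1 (95% Wilson interval 86.4 to 92.1%) and 81.4% of 355 counts in neonate replicate 2 (77.0 to 85.1%). In adults they took 94.3% of 1438 counts (93.0 to 95.4%) and 92.8% of 1351 counts (91.3 to 94.1%). All of these developmental counts were those of Myh3. The Wilson intervals cover counting error within a library, not the spread between pools, and those of the neonatal libraries did not overlap. The adult share was the higher in both libraries, by 8.07 percentage points on average (85.5 ± 5.77% against 93.6 ± 1.04%, SD, n = 2 each). An exact two-sided permutation test gave p = 0.333, the smallest that 2 libraries against 2 can give, so this design cannot pass 0.05. The difference was 3.99 points without neonate replicate 2 and 12.2 points without neonate replicate 1. With Myh7b and the other sarcomeric chains in the denominator it was 29.5 points, from shares of 38.7 and 32.0% in neonates and 67.9 and 61.9% in adults.

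**Figure D2:**
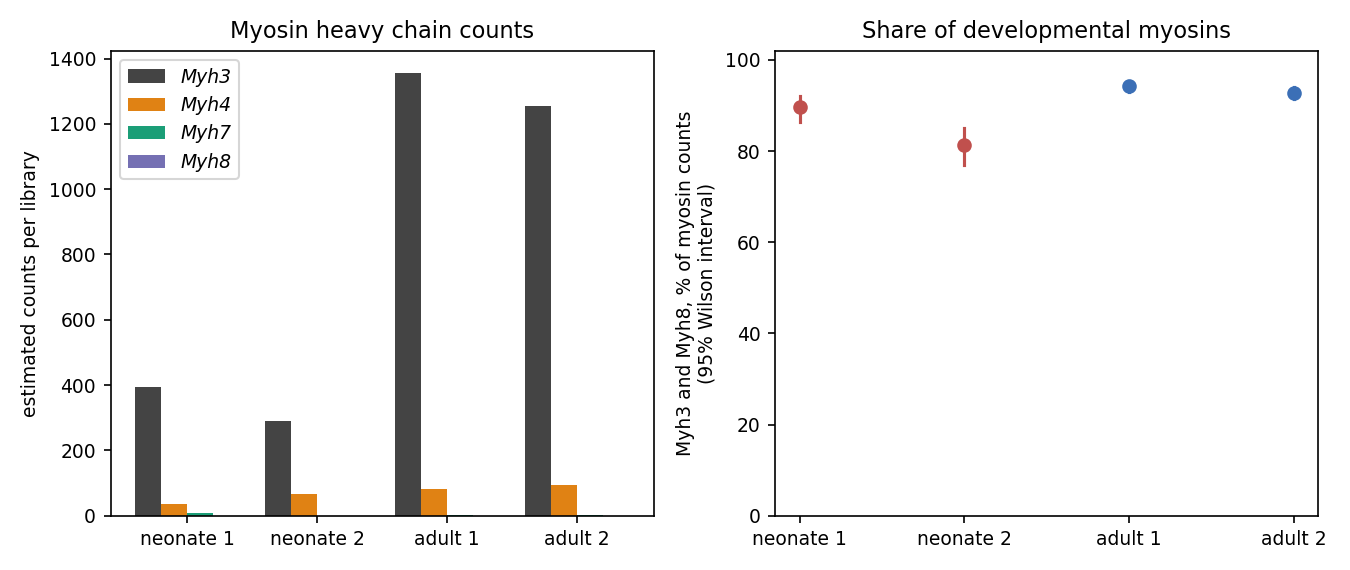
Left, estimated counts of 4 myosin heavy chain genes in each library. Right, Myh3 and Myh8 as a percentage of the counts of these genes (Myh1 and Myh2 had no row), with 95% Wilson intervals that cover counting error within a library only. The share of Myh3 lies at 89.6 and 81.4% in neonates and at 94.3 and 92.8% in adults.

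The ratio of Myh3 to Myh4 restates the share of Myh3 among the myosin members with a row, since nearly all of those counts came from these genes. Myh3 had 10.7 and 4.38 counts for each count of Myh4 in neonates, and 16.7 and 13.3 in adults. Against Acta1, Myh3 had 1.90 and 0.990 counts per count in neonates and 8.98 and 6.24 in adults. Relative to skeletal actin, therefore, Myh3 was higher in both adult libraries than in either neonatal library. These ratios do not move with the scaling of a library.

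In the gene order of GRCr8, Myh3 is the first of the cluster and is followed by Myh2, Myh1, Myh4, Myh8 and Myh13, of which Myh13 also has no row here. The coding gene next to Myh3 on its other side is Sco1, a copper chaperone of cytochrome oxidase. It had 18.4 and 24.0 CPM in neonates and 21.5 and 19.0 CPM in adults, with a log2 fold change of 0.31 that did not pass (adjusted p = 0.080). Beyond it, Adprm was lower in neonates at -0.75 (adjusted p = 0.00043, 18.1 and 16.4 against 35.9 and 33.1 CPM), short of 2-fold. Next on that side, Tmem220 did not pass at -0.59 (adjusted p = 0.24). Pirt, a membrane protein of sensory neurons, was called lower in neonates at -2.53 (adjusted p = 0.00013), with 1.09 and 0.805 CPM against 6.19 and 6.86 CPM. After Myh13 comes Gas7, at -0.51 (adjusted p = 0.0089). These flanking genes were looked up after the result for Myh3 was known.

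Acta1 (ENSRNOG00000017786), the skeletal alpha-actin of the thin filament, had 5.27 and 7.58 CPM in neonates (208 and 292 counts) and 3.997 and 5.54 CPM in adults (151 and 201 counts). The ages overlapped, since adult replicate 2 was above neonate replicate 1. The log2 fold change was 0.67 (standard error 0.27, 95% interval 0.064 to 1.28) and fell just short of the threshold (adjusted p = 0.054, edgeR's quasi-likelihood test). In 4 of 12 alternatives the adjusted p was under 0.05, the lowest being 0.011 without neonate replicate 1, and in none of them did it reach 2-fold. Acta1 is close in sequence to the other actins, and its counts were whole in every library.

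Tnnt3 (ENSRNOG00000020332), which ties troponin to tropomyosin in fast fibres, had 4.91 and 9.84 CPM in neonates (194 and 379 counts) and 8.79 and 12.2 CPM in adults (332 and 441 counts). The neonatal libraries lay farther apart than the means of the ages, 7.38 and 10.5 CPM. The log2 fold change was -0.27 (standard error 0.30, 95% interval -0.95 to 0.42, adjusted p = 0.47). It turned to 0.14 (adjusted p = 0.59) without neonate replicate 1, and was -0.80 (adjusted p = 0.015, edgeR's quasi-likelihood test) without neonate replicate 2. Its direction thus rested on which neonatal pool was used.

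Mylpf (ENSRNOG00000017645), the phosphorylatable light chain of fast myosin, had 2.15 and 2.42 CPM in neonates (85 and 93 counts) and 1.64 and 2.09 CPM in adults (62 and 76 counts). Both neonatal libraries were slightly above both adult ones. The log2 fold change of 0.54 (standard error 0.33, 95% interval -0.21 to 1.28) did not pass (adjusted p = 0.18, edgeR's quasi-likelihood test), nor did it in any of the 11 alternatives in which the gene was tested. Acta1 had 2.45 and 3.14 counts per count of Mylpf in neonate replicates 1 and 2, and 2.44 and 2.64 in adult replicates 1 and 2.

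Ckm (ENSRNOG00000016837), the creatine kinase that buffers ATP in muscle, reached 1 CPM in a single library and was not tested with the others. It had 0.481 and 0.416 CPM in neonates (19 and 16 counts) and 0.847 and 2.26 CPM in adults (32 and 82 counts). Both adult libraries were above both neonatal ones, but adult replicate 2 held most of the difference. With no filter on low counts its log2 fold change was -1.56 (standard error 0.58, 95% interval -2.87 to -0.24) and did not pass (adjusted p = 0.056, edgeR's quasi-likelihood test). Other low genes were also highest in adult replicate 2, among them the calcium buffer Pvalb, with 5 and 7 counts in neonates and 18 and 67 in adults, and Cox8b, with 7, 0, 7 and 25 counts in the same order. They are named because of their values. Markers of adipocytes, summed over 6 genes, were at 6.85 and 8.13 CPM in neonates and at 31.2 and 50.1 CPM in adults, and 4 of the 5 tested were called lower in neonates. Among them were Plin1, which coats fat droplets, at -2.30 (1.75 and 3.38 against 9.95 and 20.0 CPM), and the hormone gene Adipoq at -2.51. Cidec and Retn, the others called, reached 1 CPM in adults alone and could be tested only because they were higher there. The part of adipocytes in the level of Ckm was not tested.

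Summed over the 8 members, the level was 24.0 and 29.5 CPM in neonates and 53.3 and 59.3 CPM in adults. Without Myh3 it was 14.0 and 22.0 CPM in neonates and 17.4 and 24.7 CPM in adults, and the ages overlapped. The difference in the sum was therefore that of Myh3. Of 13695 tested genes outside the lists with counts in all libraries, the 5 whose profile over the 4 libraries was nearest to the sum were Adra2a, AABR07028997.1, Suz12, NEWGENE_1310139 and Secisbp2l, with a root mean square difference of 0.014 to 0.025 on the centred log2 CPM scale. With 4 libraries that differ mainly by age, such closeness is a description.

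**Figure D3:**
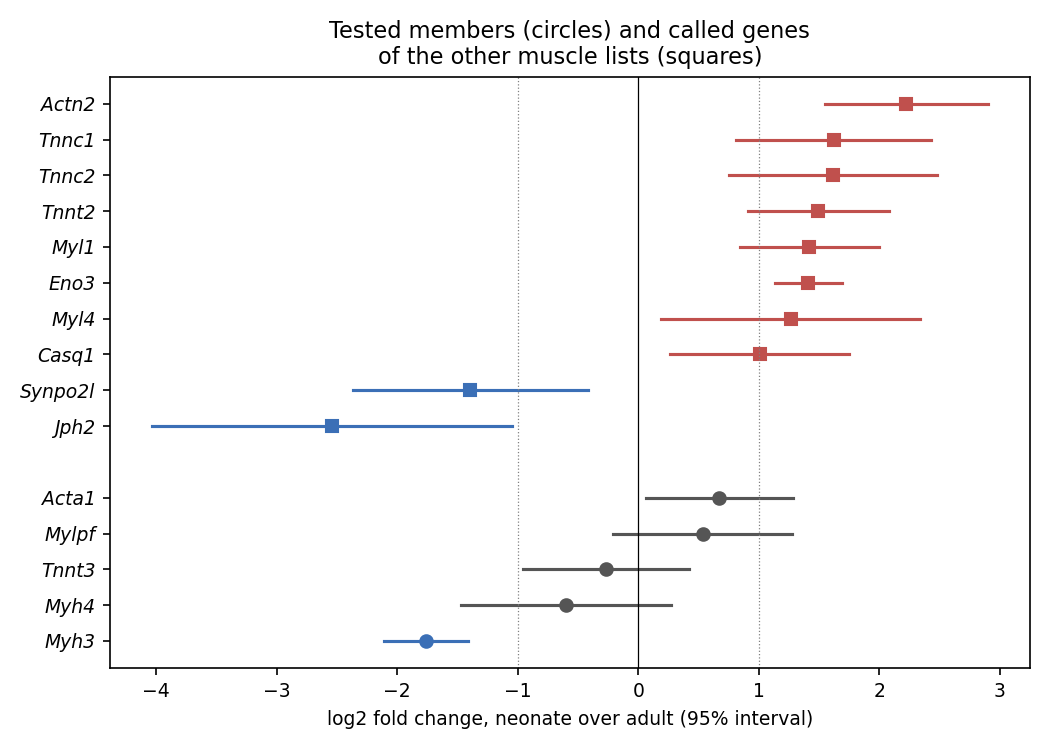
Log2 fold change, neonate over adult, with 95% intervals from edgeR's quasi-likelihood test, for the 5 tested members (circles) and the 10 called genes of the other muscle lists (squares); dotted lines mark 2-fold. Among the members, Myh3 at -1.76 is the one whose interval lies beyond 2-fold, and 8 of the 10 other called genes lie toward neonates.

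The other genes of skeletal muscle were taken from 8 lists of 92 genes without the members. A row was found for 87 of them, 9 had 0 counts in every library and 31 were tested. The 56 with a row that were not tested lay at or below 1.85 CPM in every library. Of the 31, 8 were called higher in neonates and 2 lower, 8 passed an adjusted p under 0.05 without reaching 2-fold and 13 did not pass. This is 25.8% higher and 6.45% lower, beside 7.68% and 13.2% of all genes tested. At any fold change, 18 of the 31 had an adjusted p under 0.05, beside 62.3% of all genes tested. A gene at under 1 CPM at one age could be tested only if it was higher at the other, which raises the share called. The median log2 fold change of the 31 was 0.55, beside -0.0029 for all genes tested. With library size alone as the scale, 6 were higher and 5 lower. Without adult replicate 1 the counts were 6 higher and 0 lower, and without adult replicate 2 they were 10 higher and 0 lower, since both genes called toward adults (Jph2 and Synpo2l) no longer met the level for a test without either adult library.

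In the fast fibre list, which leaves out the members, filament genes were higher in neonates where they were called (2 of 3 tested). Myl1, the fast alkali light chain, had 8.61 and 9.38 CPM in neonates and 3.12 and 4.85 CPM in adults, a log2 difference of 1.42 (standard error 0.25, adjusted p = 0.0012). Tnnc2, the calcium-binding troponin of fast fibres, had 4.03 and 3.90 CPM in neonates and 0.979 and 2.09 CPM in adults, at 1.62 (standard error 0.38, adjusted p = 0.0054). It was called at 1.14 without adult replicate 1 (adjusted p = 0.046) and at 2.22 without adult replicate 2. Both sets of libraries were clear of each other. The 4 genes of this list that were not tested (Actn3, Mylk2, Myoz1 and Tnni2) had between 9 and 66 counts. Summed, the fast fibre list was at 18.4 and 16.6 CPM in neonates and at 6.30 and 10.1 CPM in adults. Of the fast fibre members left out of it, Myh4 was at -0.60, Tnnt3 at -0.27 and Mylpf at 0.54, and none passed.

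Of 10 genes of slow fibres, 9 had a row, 4 were tested and 1 was called. Tnnc1, the slow and cardiac troponin C, was higher in neonates at 1.62 (standard error 0.36, adjusted p = 0.0037), with 2.36 and 3.64 CPM against 1.19 and 1.10 CPM. Mybpc1, slow myosin-binding protein C, had 125 and 156 CPM in neonates and 135 and 132 CPM in adults, and differed by 0.32 on the log2 scale (adjusted p = 0.018), or 0.074 scaled to library size alone (adjusted p = 0.57). Myh7b, an ancient slow myosin heavy chain, had 14.6 and 14.2 CPM in neonates and 14.8 and 18.5 CPM in adults, at 0.034 (standard error 0.15, adjusted p = 0.85). Mybpc1 and Myh7b were thus present at both ages while the slow light chains Myl2 and Myl3 were at 0.

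Of 4 other developmental contractile genes, 2 were tested and both were called higher in neonates. Tnnt2, the fetal and cardiac troponin T, had 5.22 and 6.49 CPM in neonates and 2.49 and 2.43 CPM in adults, at 1.49 (standard error 0.26, adjusted p = 0.00099). Myl4, the embryonic light chain, had 1.14 and 1.84 CPM against 0.476 and 0.992 CPM, at 1.26 (standard error 0.47, adjusted p = 0.042). The call for Myl4 was lost with DESeq2 (adjusted p = 0.075), scaled to library size alone, with no filter, and without adult replicate 1, where it was 0.81 (adjusted p = 0.26). Without either neonatal library it no longer met the level for a test. Myl4 reached 1 CPM in neonates alone, so it could be tested only because it was higher there. The fetal actin Actc1, with 4 and 0 counts in neonates and 4 and 6 in adults, was not tested. Nor was Mybph, a myosin-binding protein, which like Myh3 had more counts in adults (14 and 14) than in neonates (4 and 0).

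Scaffold genes of the sarcomere were called in both directions. Actn2, which anchors actin at the Z-disc, was higher in neonates at 2.23 (standard error 0.30, adjusted p = 0.00023), with 5.45 and 4.78 CPM against 1.43 and 1.16 CPM. Synpo2l, an actin-binding Z-disc protein, was lower in neonates at -1.39 (standard error 0.43, adjusted p = 0.019), with 0.380 and 0.441 CPM against 1.16 and 1.41 CPM. DESeq2 gave -1.40 for Synpo2l with an adjusted p of 0.076. Synpo2l reached 1 CPM in adults alone, so it could be tested only because it was higher there. Ldb3, another Z-disc gene, had 15.8 and 16.2 CPM in neonates and 32.1 and 34.4 CPM in adults, at -0.81 (adjusted p = 0.00015), and Neb, the ruler of the thin filament, did not pass at -0.37 (adjusted p = 0.13). Scaled to library size alone, Ldb3 was called, at -1.06. Of the 8 tested, 4 did not pass.

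Of 6 genes of calcium release tested, 1 was called higher in neonates, 1 lower, and 4 passed the adjusted p without reaching 2-fold. Of all genes tested, 62.3% passed the adjusted p. Casq1, the calcium store protein of fast fibres, was higher in neonates at 1.01 (standard error 0.33, adjusted p = 0.024), with 3.34 and 3.09 CPM against 1.51 and 2.29 CPM. Its cardiac partner Casq2 was at -0.79 (standard error 0.17, adjusted p = 0.00325), short of 2-fold, with 7.98 and 8.52 CPM against 14.7 and 19.2 CPM. Scaled to library size alone, Casq2 was called, at -1.04. Casq1 lay on the 2-fold line, and its call was lost at 0.76 scaled to library size alone (adjusted p = 0.072), at 0.98 with no filter, at 0.93 without neonate replicate 1 and at 0.72 without adult replicate 1 (adjusted p = 0.20).

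Jph1 and Jph2 hold the calcium store to the surface membrane, Jph1 mainly in skeletal and Jph2 mainly in cardiac muscle. Jph1 was at 0.90 (adjusted p = 0.022, 3.29 and 4.23 against 2.44 and 2.34 CPM), short of 2-fold, and without neonate replicate 1 it was called at 1.05. Jph2 was lower in neonates at -2.54 (standard error 0.66, adjusted p = 0.00865), with 0.304 and 0.0519 CPM (12 and 2 counts) against 1.06 and 1.46 CPM (40 and 53 counts). Without neonate replicate 2 it was at -1.75 and without neonate replicate 1 at -4.29. Jph2 reached 1 CPM in adults alone, so it could be tested only because it was higher there. The skeletal ryanodine receptor Ryr1 stayed between 16 and 19 counts in every library and was not tested. The cardiac form Ryr2 had 18.8 and 16.3 CPM in neonates and 78.4 and 71.9 CPM in adults, at -1.85 (standard error 0.12, adjusted p = 5.4e-06). Trdn, which couples the store protein to the receptor, had 12.1 and 13.3 against 10.6 and 10.2 CPM, at 0.53 (adjusted p = 0.014).

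None of the 3 tested genes of the neuromuscular junction passed, where nerve meets muscle. Rapsn, which clusters acetylcholine receptors, had 3.01 and 2.49 CPM in neonates and 1.30 and 2.81 CPM in adults (0.68, adjusted p = 0.17), and the receptor subunit Chrnb1 had 1.52 and 2.13 against 2.09 and 2.37 CPM (-0.047, adjusted p = 0.91). Without adult replicate 2, Rapsn was at 1.30 and passed (adjusted p = 0.047). Of 12 genes of muscle energy supply, 3 were tested and Eno3, the muscle enolase, was called higher in neonates, with 26.3 and 27.9 CPM against 11.0 and 13.2 CPM, at 1.41 (standard error 0.12, adjusted p = 2.5e-05). Pfkm, the muscle phosphofructokinase that other tissues also use, had 116 and 113 against 143 and 130 CPM (-0.0079, adjusted p = 0.94). Fbp2, muscle fructose bisphosphatase, had 27 and 22 counts in neonates and 1 and 2 in adults but was below the level needed for a test, and it is named because of its values. Of 11 myogenic factors, 2 were tested and neither passed. The satellite cell cadherin Cdh15 was at 1.02 (adjusted p = 0.063), and without neonate replicate 1 Cdh15 was at 1.17 and passed (adjusted p = 0.039).

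**Figure D4:**
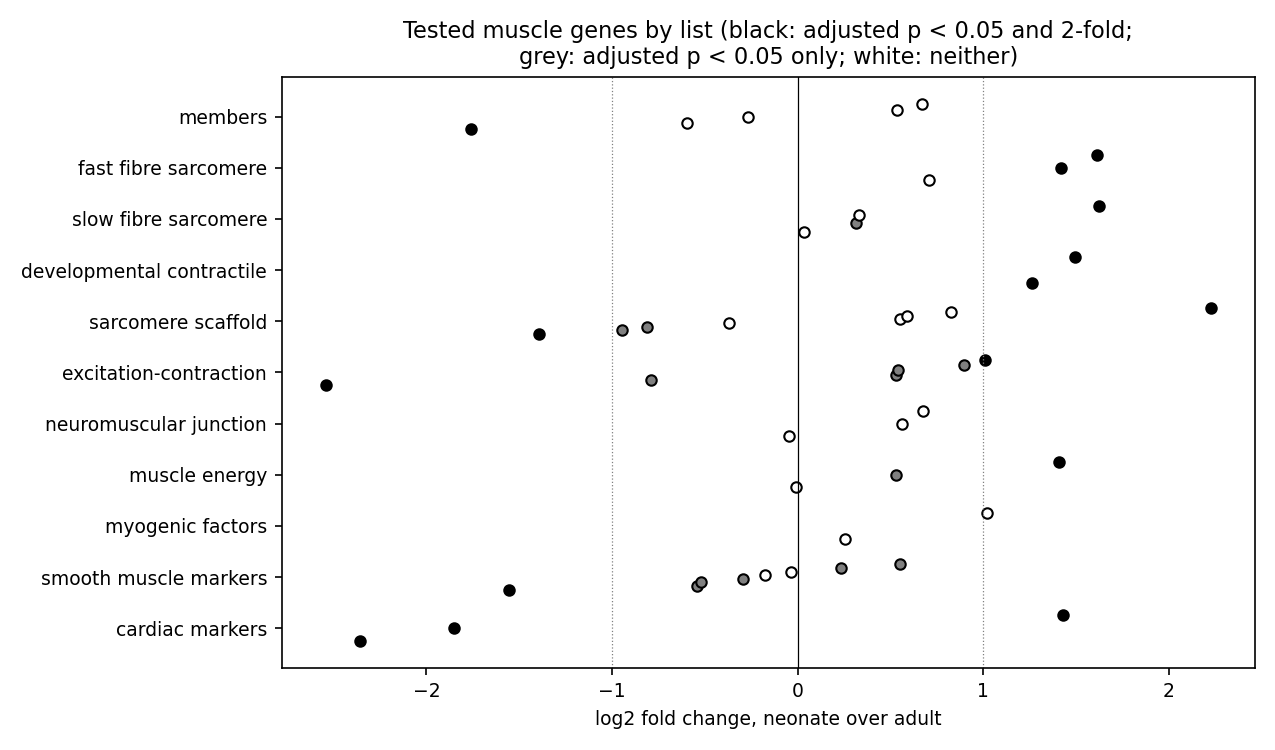
Log2 fold change, neonate over adult, of each tested gene, by list; black points passed an adjusted p under 0.05 and 2-fold, grey points the adjusted p alone and white points neither. Called genes of the skeletal lists lie mostly to the right (8 of 10), with Jph2 and Synpo2l to the left, while Myh3 among the members and Ryr2 and Pln among the cardiac markers also lie to the left.

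Other muscle types were checked beside these values, since they can share the genes. Summed smooth muscle markers were at 755 and 821 CPM in neonates and at 1058 and 1249 CPM in adults. All 8 were tested, 1 (Lmod1, leiomodin of smooth muscle) was called lower in neonates at -1.55 (adjusted p = 2.4e-05, 8.66 and 10.7 against 30.9 and 36.5 CPM), 5 passed the adjusted p without 2-fold and 2 did not pass. Acta2, smooth muscle actin, had 222 and 255 against 280 and 299 CPM (-0.03, adjusted p = 0.74), and Tagln, a calponin-related protein of smooth muscle, 175 and 176 against 275 and 322 CPM (-0.52, adjusted p = 0.0010). The adjusted p was passed by 62.3% of all genes tested. Of 8 cardiac markers 3 were tested. Pln, which restrains the calcium pump, was lower in neonates at -2.36 (adjusted p = 0.00028, 2.51 and 1.30 against 10.3 and 13.0 CPM), as was Ryr2, and Tnni3 was higher in neonates at 1.43 (adjusted p = 0.0070). The other cardiac markers, among them Nppa, Nppb, Myl7 and Mybpc3, had at most 11 counts in any library. The part of smooth muscle in the level of Myh3 was not tested.

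Among myosins of other cells, Myh11, the smooth muscle heavy chain, had 142 and 154 CPM in neonates and 217 and 294 CPM in adults (-0.54, adjusted p = 0.0047), and Myh10, a chain of non-muscle cells, 127 and 129 against 106 and 95.8 CPM (0.59, adjusted p = 0.00029). Neither reached 2-fold. Myh9 has a second entry, Myh9l1, which the gene table of GRCr8 lists as a synonym of Myh9, and both have fractional counts. Added together they had 114 and 123 CPM in neonates and 299 and 311 CPM in adults, while Myh9 alone had 83.4 and 68.7 against 99.0 and 42.8 CPM. The split of reads between both entries differed by library, so the level of Myh9 alone is uncertain.

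Markers of further cell types were read for the same libraries. Summed glomus cell markers (6 genes) were at 4513 and 3394 CPM in neonates and at 4441 and 3773 CPM in adults. Parathyroid markers (3 genes) were at 1616 and 197 CPM in neonates and at 0.0265 and 0.0551 CPM in adults, and thyroid markers (5 genes) between 0.887 and 2.33 CPM. Neonate replicate 1, the library with the most parathyroid RNA, had the lowest Tnnt3 and Myh4. Other members did not share this, as Myh3 and Ckm were lowest in neonate replicate 2 and Acta1 and Mylpf in adult replicate 1. The part of these cell types in the members' levels was not tested.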

How the data were processed

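RNA of CBs pooled from neonatal and adult rats was sequenced after poly A+ selection. The authors trimmed the reads, mapped them with STAR 2.6.1d, quantified them with Salmon (1.5.2 in the submitters' processing notes) on Rnor_6.0 and deposited estimated counts per gene, not normalized and not filtered. Fractional counts make up 5.02% to 6.19% of a library's values. All per-sample columns were used.

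Estimated counts were rounded. Of 32883 genes, 636 annotated as other than protein-coding by symbol were removed, and the rest were tested where 2 or more libraries reached 1 CPM, by edgeR 4.0.16 (R 4.3.3; quasi-likelihood test, TMM, no covariates), as neonate over adult, p-values being adjusted by Benjamini-Hochberg across 13843 genes. A gene was called at an adjusted p under 0.05 and 2-fold. Standard errors come from the F statistic. CPM are scaled to the library total, without TMM. The procedure was tested on simulated data.

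The members and lists were chosen with earlier results of these data known. Genes named are the members, of each list of muscle genes the 2 tested with the highest mean CPM and the called ones with the largest and smallest fold change, and the 5 genes nearest to the summed members. The same rule's genes of non-muscle markers are mostly given as sums. Some items are not reported here. Genes that were not tested, Jph1, the flanking genes and Myh9 were added after their values were seen. Alternatives were DESeq2 1.42.0, limma-voom (limma 3.58.1), RLE factors, library size alone, other filters, all biotypes, a replicate block and each library left out. Transcript lengths were not used here, so shares and ratios of counts between genes are compared between ages, not as levels.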

Additional observations from a re-analysis of the deposited data

How the results depend on the processing

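Myh3 was called lower in neonates in the reported fit and all 12 alternatives, with log2 fold changes from -2.01 to -1.53 and an adjusted p of at most 4.2e-05. The count of members called was 1 in every alternative except without neonate replicate 2, where Myh4 was added, so leaving out a library gave 1 to 2. The log2 fold change of Tnnt3 reversed to 0.14 without neonate replicate 1 and was -0.80 without neonate replicate 2. Mylpf stayed between 0.29 and 0.68 and Acta1 between 0.43 and 0.90. Of the other muscle genes, 10 were called in the reported fit, 2 with a mean of at least 5 CPM (where 12 were tested), 18 without a minimum fold change (13 higher and 5 lower in neonates), and 6 to 10 when a library was left out. Without a minimum fold change, 62.3% of all genes tested in the reported fit passed, in either direction. The 2 called with a mean of at least 5 CPM were both higher in neonates. Under that filter, 654 of all 11335 genes tested were called higher in neonates and 1169 lower. In both directions together, the called share of these muscle genes was then close to that of all genes. Scaled to library size alone, 6 of the other muscle genes were higher and 5 lower, in place of 8 and 2. The share of Myh3 and Myh8 was also taken with all sarcomeric heavy chains that had a row in the denominator, which adds Myh7b. The difference, neonate minus adult, was then -29.5 percentage points, and -8.07 with the members alone. Leaving out a library it ran from -12.2 to -3.99.

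The replicate numbers did not pair the libraries, since same-numbered libraries deviated from their age means with a correlation of -0.015. With the replicate number as a block, 1 member and 10 other muscle genes were called, as many as without the block, and Acta1 had an adjusted p of 0.027 at 0.67. With 2 libraries per age and levels mostly under 20 CPM, small differences could not be resolved, as the intervals show. Members under 1 CPM rest on few counts.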
